A study of Mus musculus with 2 samples.

Results

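The genes described here make 3 kinds of lipid or amine signal: prostaglandins, leukotrienes and histamine. They are Alox5, Alox5ap, Ltc4s, Ptgs1, Ptgs2, Hpgds, Ptgds, Ptges and Hdc, chosen by symbol with earlier results of these libraries known. Each symbol matched 1 RefSeq transcript line, so there are 9 lines of 30794 and 9 genes of 23123 in all. The libraries are poly(A)-selected RNA of medullary thymic epithelial cells (mTEC), which show tissue antigens to developing T cells. The thymi of wild-type B6 mice were pooled, the cells were sorted by surface MHC class II into a high (mTEChi) and a low (mTEClo) fraction, and each fraction gave 1 library. The age of the mice and the number pooled are not given in the sources used here. With 1 library per group there is no replicate check and no test, and every value below describes these 2 libraries. Sequencing was paired (100 bases an end) for mTEChi and unpaired (50 bases) for mTEClo, so sequencing mode and sorted fraction cannot be told apart.

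As background, the prostaglandins and leukotrienes named here start from arachidonic acid, which phospholipases A2 release from membranes. The cyclooxygenases Ptgs1 (constitutive in many cells) and Ptgs2 (inducible) turn it into prostaglandin H2, from which separate synthases make prostaglandin D2 and E2. Alox5 with its partner Alox5ap makes leukotriene A4, which Ltc4s conjugates with glutathione to leukotriene C4. Histamine is made from histidine by a single enzyme, Hdc. Tuft cells are chemosensory epithelial cells, which also occur in the thymic medulla. In the gut and airway they are known for genes that include Alox5, Alox5ap, Ltc4s, Ptgs1 and Hpgds. Mast cells and basophils are known for genes that include Hdc, Hpgds and Ltc4s.

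The 9 genes fell into 3 patterns. Ptgds, Ptgs2 and Hdc stood well above mTEClo in mTEChi. Ptgs1 was lower in mTEChi, as were Alox5, Alox5ap, Ltc4s and Hpgds by smaller amounts. Ptges was near the midpoint of all genes. Promoter sequences of 5 of them are shown because the prostaglandin D and cyclooxygenase pairs and Hdc carry these patterns. Each runs 5′ to 3′ on the gene's own strand, from 250 bases before to 50 bases after the RefSeq start, in build GRCm38.p6 (the deposited values use mm9, so these coordinates apply to the sequences only). Capitals mark matches to the motifs searched.

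Ptgds, chr2:25469700-25469999, minus strand: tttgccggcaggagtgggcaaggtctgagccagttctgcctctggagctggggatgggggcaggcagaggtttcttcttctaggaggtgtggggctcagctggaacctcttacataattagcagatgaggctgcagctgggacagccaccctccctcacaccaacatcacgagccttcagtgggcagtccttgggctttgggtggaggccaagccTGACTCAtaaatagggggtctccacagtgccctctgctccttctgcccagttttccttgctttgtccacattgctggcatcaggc

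Hpgds, chr6:65144681-65144980, minus strand: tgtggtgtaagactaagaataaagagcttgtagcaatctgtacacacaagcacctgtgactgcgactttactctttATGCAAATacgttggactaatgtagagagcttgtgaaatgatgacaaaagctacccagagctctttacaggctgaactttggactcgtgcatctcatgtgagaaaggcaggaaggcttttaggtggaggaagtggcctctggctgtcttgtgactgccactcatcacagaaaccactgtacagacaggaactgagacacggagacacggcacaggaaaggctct

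Ptgs2, chr1:150099781-150100080, plus strand: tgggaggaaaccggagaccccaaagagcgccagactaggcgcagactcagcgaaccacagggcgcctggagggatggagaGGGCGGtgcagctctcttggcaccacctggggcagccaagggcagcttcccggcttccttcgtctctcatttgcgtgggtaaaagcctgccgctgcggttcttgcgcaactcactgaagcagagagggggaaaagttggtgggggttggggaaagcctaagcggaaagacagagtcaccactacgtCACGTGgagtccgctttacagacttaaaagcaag

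Ptgs1, chr2:36230176-36230475, plus strand: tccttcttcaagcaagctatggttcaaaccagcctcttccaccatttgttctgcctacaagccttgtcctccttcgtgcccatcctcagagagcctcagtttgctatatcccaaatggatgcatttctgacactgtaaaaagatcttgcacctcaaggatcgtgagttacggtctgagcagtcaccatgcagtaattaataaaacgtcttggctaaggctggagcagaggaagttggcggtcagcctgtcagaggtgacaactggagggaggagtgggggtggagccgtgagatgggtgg

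Hdc, chr2:126618629-126618928, minus strand: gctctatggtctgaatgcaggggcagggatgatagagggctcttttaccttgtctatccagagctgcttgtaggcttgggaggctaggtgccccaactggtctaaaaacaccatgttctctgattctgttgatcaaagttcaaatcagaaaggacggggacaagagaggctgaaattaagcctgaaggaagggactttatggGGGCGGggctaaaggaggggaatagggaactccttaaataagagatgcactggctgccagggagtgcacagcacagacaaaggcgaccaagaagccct

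Searched on both strands were the TATA box letters TATAAA, the GC box GGGCGG, the E-box CACGTG, the AP-1 motif TGACTCA, the octamer ATGCAAAT and the cAMP response element TGACGTCA. They were chosen after the sequences were seen, and none of them contains another. RefSeq entries were found for 8 of the 9 genes, all but Alox5ap. The Ptgds window holds TGACTCA 35 bases before the start, a match found in 5.20% of 32851 promoter windows. The Hpgds window holds ATGCAAAT, letters read by POU factors, 174 bases before the start, which 1.74% of windows hold. Ptgs2 holds CACGTG 16 bases after its annotated start (7.15% of windows). GGGCGG is held by 4 of the 8 windows (Alox5, Ptgs2, Ptges and Hdc) and by 35.7% of all windows. TATAAA (13.6% of windows) and TGACGTCA (1.79%) were in none of the 8, and Ptgs1 holds none of the motifs. These are letter matches, not measured sites.

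The deposited unit is RPKM, reads scaled by transcript length and by library depth. Levels below are RPKM as deposited, and of a pair of values the first is that of mTEChi. A change is log2((mTEChi + 1)/(1.21 x mTEClo + 1)). Multiplying mTEClo by 1.21 centres the ratios of 5167 well-expressed genes, and the pseudocount of 1 RPKM understates changes of low genes. The values imply a depth of about 115000000 reads in mTEChi and 20900000 in mTEClo. Intervals (95%, exact) rest on reads recovered from these depths and transcript lengths and cover counting error only; both ends of a read pair may have been counted, which would make those of mTEChi too narrow. The labels were checked on H2-Aa, a class II chain, at 4908 RPKM in mTEChi and 1524 RPKM in mTEClo, and on Epcam, an epithelial marker, at 198 and 127 RPKM. Averaging 0.5 RPKM or above was the filter, which 15590 genes passed. Of these, 16.1% were higher in mTEChi by 2-fold (1 on the log2 scale) or more and 9.35% lower. Of the genes past 2-fold, 63.3% were higher, a share of 74.9% without scaling and 80.4% when upper quartiles were matched. The median change of all these genes was 0.03, and 0.25 and 0.37 under those scalings. In numbers, 2508 genes higher and 1457 lower became 3024 and 1011 without scaling and 3430 and 838 with matched upper quartiles. A pseudocount of 5 RPKM gave 877 and 648.

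All 9 synthesis genes passed the filter on a mean of 0.5 RPKM. Of them, 3 were at least 2-fold higher (16.1% of all genes) and 1 was at least 2-fold lower (9.35%), and 5 lay between. These counts use the contrast that the genes were chosen on and are given as a description. Hdc and Ptgs2 had the highest levels of the 9 in mTEChi, and Alox5ap had the highest in mTEClo. Ptgds was the lowest of the 9 in mTEClo and the third highest in mTEChi.

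**Figure D1:**
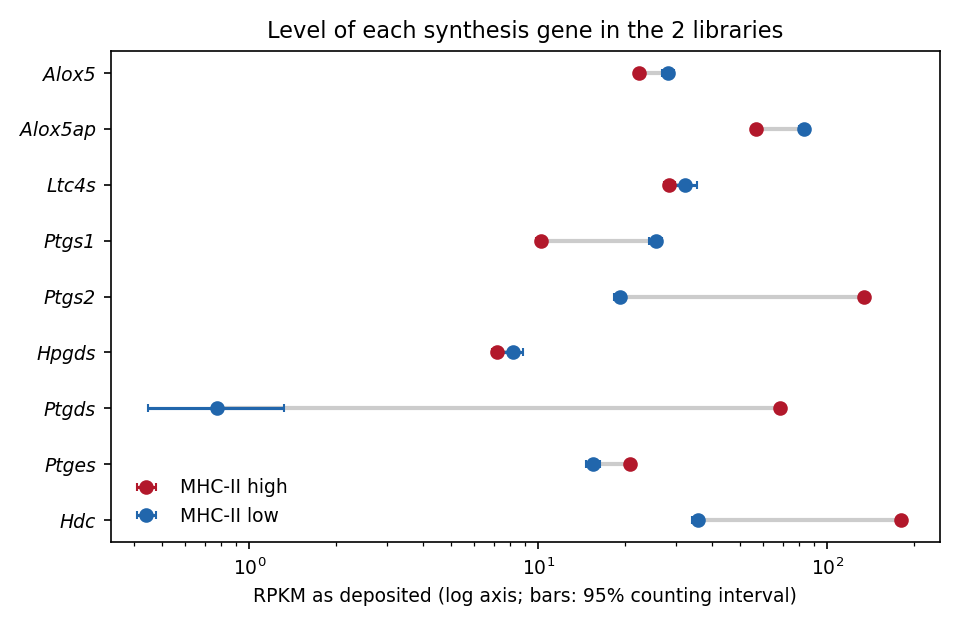
Level of each of the 9 genes in the MHC-II high (red) and MHC-II low (blue) library, in RPKM on a log axis, with 95% counting intervals as bars. The widest gap is that of Ptgds, from 0.773 RPKM in mTEClo to 68.7 RPKM in mTEChi, while Ltc4s and Hpgds lie close together.

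Of the prostaglandin D synthases, Ptgds, the lipocalin-type enzyme known from brain and from the male genital tract, had 68.7 RPKM in mTEChi and 0.773 RPKM in mTEClo. Its log2 change was 5.17, and only 8 of the 15590 genes had a larger one. The low value corresponds to 15 recovered reads, with an interval from 0.447 to 1.32 RPKM. Without a pseudocount the log2 ratio was 6.20, with an interval from 5.43 to 6.99. The size of the Ptgds difference thus rests on few reads in mTEClo, and a pseudocount of 5 RPKM gave 3.63 where one of 0.1 RPKM gave 6.06.

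Hpgds, the haematopoietic enzyme for the same reaction, had 7.18 RPKM in mTEChi and 8.16 RPKM in mTEClo, a log2 change of -0.41. It was the lowest of the 9 genes in mTEChi. Ptgds and Hpgds make the same product through unrelated proteins, and the libraries differed in which transcript led. In mTEChi Ptgds stood at 9.57 times the RPKM of Hpgds, with an interval from 9.16 to 9.999. In mTEClo the ratio was 0.0948, with an interval from 0.0545 to 0.163. This ratio is taken within a library, so no scaling between libraries enters it. The summed RPKM of both genes was 75.9 in mTEChi and 8.93 in mTEClo, of which Ptgds made up 90.5% and 8.66%.

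Among the cyclooxygenases, Ptgs2 had 134 RPKM in mTEChi and 19.1 RPKM in mTEClo. Its log2 change was 2.49, and the ratio without pseudocount was 5.80-fold (log2 interval from 2.47 to 2.61). Ptgs1 went the other way, with 10.2 RPKM in mTEChi and 25.5 RPKM in mTEClo. Its log2 change was -1.51, and without pseudocount the log2 ratio had an interval from -1.68 to -1.51. In mTEChi Ptgs2 stood at 13.2 times Ptgs1 (interval from 12.7 to 13.6). In mTEClo it stood at 0.750 times Ptgs1 (interval from 0.6999 to 0.804). Ptgs2 thus made up 92.9% of the summed cyclooxygenase RPKM in mTEChi and 42.9% in mTEClo, and the sum was 144 and 44.6 RPKM. In GENCODE, 5.16% of the Ptgs1 exon bases overlap Gm43621 on the other strand, and the libraries keep no strand.

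**Figure D2:**
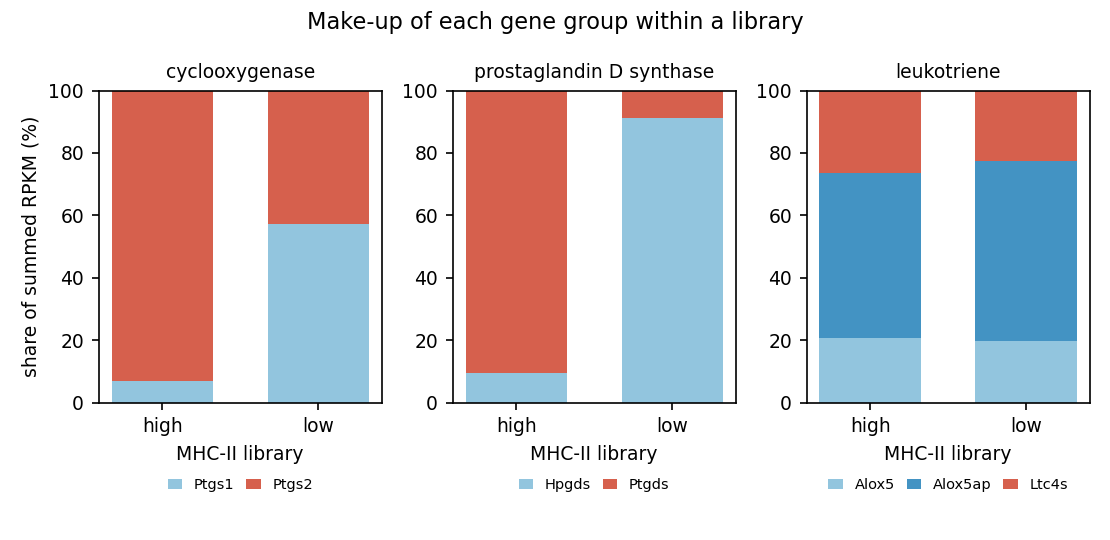
Share of the summed RPKM (%, axis from 0) of each gene within the cyclooxygenase pair, the prostaglandin D synthase pair and the leukotriene genes, in mTEChi and in mTEClo. Ptgs2 makes up 92.9% against 42.9% of its pair and Ptgds 90.5% against 8.66% of its pair, while the 3 leukotriene genes keep similar shares.

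Ptges, the inducible membrane enzyme that makes prostaglandin E2 and often acts with Ptgs2, did not share its difference here. Ptges had 20.7 RPKM in mTEChi and 15.5 RPKM in mTEClo, a log2 change of 0.14 that was 0.55 with matched upper quartiles. The ratio of Ptges to Hpgds was 2.88 in mTEChi and 1.90 in mTEClo.

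The leukotriene genes were lower in mTEChi by less than 2-fold. Alox5, the 5-lipoxygenase, had 22.2 RPKM in mTEChi and 28.1 RPKM in mTEClo, a log2 change of -0.59. Alox5ap, the membrane protein that presents arachidonic acid to Alox5, had 56.7 and 83.0 RPKM, a log2 change of -0.81. Ltc4s, the leukotriene C4 synthase, had 28.4 and 32.2 RPKM, a log2 change of -0.44. Their ratios to each other were similar in both libraries. The RPKM of Alox5ap was 2.55 times that of Alox5 in mTEChi (interval from 2.47 to 2.63) and 2.96 times in mTEClo (from 2.77 to 3.15), intervals that do not overlap. The ratio of Ltc4s to Alox5 was 1.28 (from 1.22 to 1.34) and 1.15 (from 1.03 to 1.27), so these intervals overlap. With matched upper quartiles the log2 change was -0.17 for Alox5, -0.38 for Alox5ap and -0.02 for Ltc4s, so the distance of Ltc4s from 0 depends on the scaling. Hpgds also came to -0.02 under that scaling. On the other strand Gm26542 overlaps 29.6% of the Ltc4s exon bases and Gm19719 overlaps 15.1% of those of Alox5ap, so part of their reads could belong to either gene.

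Hdc, the histidine decarboxylase, had 180 RPKM in mTEChi and 35.5 RPKM in mTEClo. Its log2 change was 2.04, and the ratio without pseudocount was 4.19-fold (log2 interval from 2.00 to 2.13). It was the highest of the 9 genes in mTEChi, where 1.09% of all genes had a higher RPKM, and 5.59% had one in mTEClo. Hdc alone made up 34.0% of the summed RPKM of the 9 genes in mTEChi and 14.3% in mTEClo.

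By level in mTEChi the order was Hdc, Ptgs2, Ptgds, Alox5ap, Ltc4s, Alox5, Ptges, Ptgs1 and Hpgds. No neighbours in that order had overlapping counting intervals. In mTEClo the order was Alox5ap, Hdc, Ltc4s, Alox5, Ptgs1, Ptgs2, Ptges, Hpgds and Ptgds. There the intervals of Hdc (33.9 to 37.2 RPKM) and Ltc4s (29.3 to 35.4 RPKM) overlapped. Those of Ltc4s and Alox5 (26.8 to 29.5 RPKM) overlapped at their edges, as did those of Alox5 and Ptgs1 (24.2 to 26.8 RPKM).

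**Figure D3:**
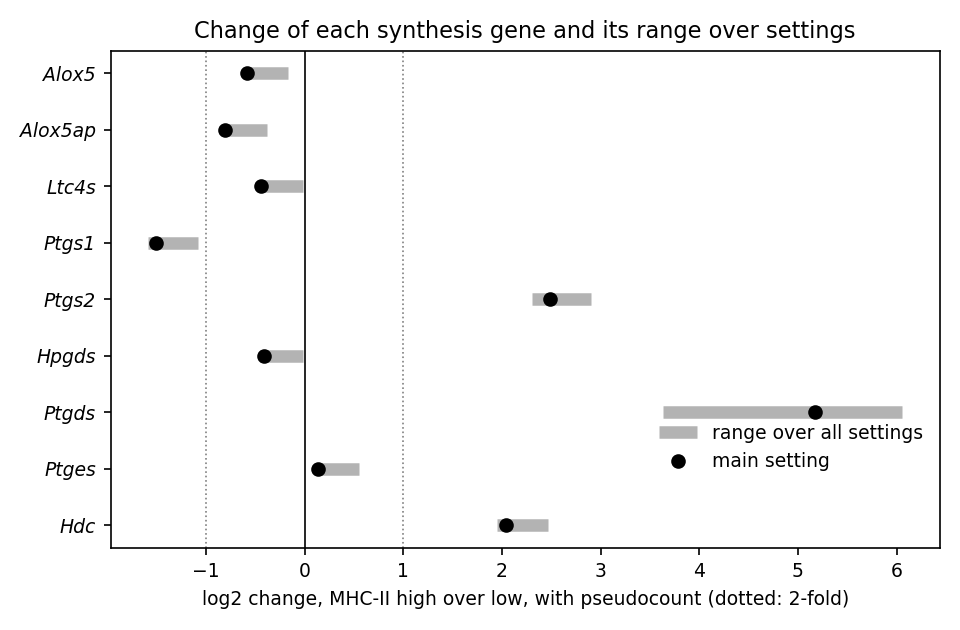
Log2 change of each of the 9 genes (black points) with its range over the main setting and 10 alternative settings (grey bars), and dotted lines at 2-fold. Ptgds, Ptgs2 and Hdc stay past 2-fold on the high side and Ptgs1 on the low side, while the bars of Ltc4s and Hpgds end at -0.02.

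The wider pathway was read from a list of 69 further genes: phospholipases A2, other prostanoid and leukotriene enzymes, transporters and receptors, other lipoxygenases, and histamine genes. Of 58 that passed the filter, 19 were 2-fold or more higher in mTEChi (16.1% of all genes) and 5 at least 2-fold lower (9.35%). Their median change was 0.72, against 0.03 for all genes. Of the 58, 3 were listed at 0 in mTEClo and are past 2-fold by construction. Among the 55 others, 16 were at least 2-fold higher, beside 11.4% of all genes above 0 in mTEClo. The 19 and 5 became 9 and 2 with a pseudocount of 5 RPKM and 30 and 2 with matched upper quartiles.

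Among phospholipases A2 that passed the filter, 9 of 15 were at least 2-fold higher (16.1% of all genes), 3 of the 9 by construction. At least 2-fold lower was 1 (9.35% of all genes). Which of them supply arachidonic acid in these cells was not tested. Of the 12 above 0 in mTEClo, 6 were higher, beside 11.4% of all such genes. With a pseudocount of 5 RPKM the list had 5 higher and 0 lower. Pla2g4a, the cytosolic enzyme that frees arachidonic acid for both branches, had 40.0 RPKM in mTEChi and 11.9 RPKM in mTEClo (log2 change 1.41). The secreted enzymes Pla2g2f (44.9 and 10.04 RPKM, 1.81), Pla2g3 (13.7 and 0.803 RPKM, 2.90) and Pla2g2d (9.44 and 1.33 RPKM, 2.00) were higher as well. Pla2g4c and Pla2g4f, relatives of Pla2g4a, had 5.37 and 4.58 RPKM in mTEChi and 0.480 and 0.153 RPKM in mTEClo (2.01 and 2.24). Pla2g1b, the pancreatic enzyme, was listed at 17.3 RPKM in mTEChi and at 0 in mTEClo, and Pla2g10 and Pla2g4e at 1.39 and 1.16 RPKM against 0. Pla2g4b was the lower one, with 0.819 and 3.52 RPKM (-1.53).

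Among the other prostanoid genes 0 of 16 were 2-fold higher (16.1% of all genes) and 3 were lower (9.35%). Without scaling the counts were 3 and 1, the higher ones being the E2 receptor gene Ptger3 (1.13), the export pump gene Abcc4 (1.01) and Ptgr1 (1.01), whose product reduces prostaglandin metabolites. Ptgis, the prostacyclin synthase, had 0.870 RPKM in mTEChi and 12.2 RPKM in mTEClo (-3.07). Hpgd, which inactivates prostaglandins, had 33.3 and 62.3 RPKM (-1.15, or -0.88 without scaling and -0.72 with matched upper quartiles). Tbxa2r, the thromboxane receptor, had 0.0953 and 1.10 RPKM (-1.09, or -0.94 without scaling). Beside Ptgis, 6 of 6 endothelial markers and 7 of 8 fibroblast markers were at least 2-fold lower in mTEChi (9.35% of all genes). The endothelial count was 5 without scaling and 4 with a pseudocount of 5 RPKM. Over all 15590 genes, 1011 and 648 were lower under those settings. Endothelial markers summed to 12.5 RPKM in mTEChi and 123 RPKM in mTEClo, and fibroblast markers to 37.9 and 698 RPKM. Ptgs1 was also at least 2-fold lower in mTEChi (10.2 and 25.5 RPKM). The part of endothelial cells and fibroblasts in the Ptgis and Ptgs1 values was not tested.

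Receptors for prostaglandins D2 and E2 were listed at low or moderate levels in both libraries. Of the E2 receptors, Ptger1 had 7.48 and 5.24 RPKM, Ptger3 12.1 and 5.004 RPKM, Ptger4 5.94 and 5.56 RPKM, and Ptger2 0.289 and 0.0635 RPKM. Of the D2 receptors, Ptgdr had 1.60 and 2.13 RPKM and Ptgdr2 0.313 and 0.543 RPKM. Ptger2 and Ptgdr2 did not pass the filter. Of the other 4, Ptger3 had a log2 change of 0.90 and passed 2-fold without scaling (1.13), with the same RPKM sum (1.02) and with matched upper quartiles (1.26).

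On the leukotriene side, 4 of 13 further genes were at least 2-fold higher (16.1% of all genes) and 1 lower (9.35%). With a pseudocount of 5 RPKM none of the 5 was past 2-fold, Cysltr2 coming to 0.98, Abcc1 to 0.94, Cyp4f18 to 0.67, Ggt1 to 0.58 and Dpep1 to -0.56. With matched upper quartiles 6 were higher and 0 lower. Cysltr2, a receptor for cysteinyl leukotrienes, had 31.2 RPKM in mTEChi and 11.1 RPKM in mTEClo (1.16), while Cysltr1 was listed at 0.0822 RPKM and 0. Abcc1, which exports leukotriene C4, had 22.5 and 7.69 RPKM (1.19). Cyp4f18, a leukotriene B4 hydroxylase, had 4.32 and 0.703 RPKM (1.52). Ggt1 and Ggt5, which both trim leukotriene C4 to D4, went in different directions. Ggt1 had 2.90 and 0.237 RPKM (1.60). Ggt5 had more in both libraries, with 16.6 and 25.2 RPKM (-0.84). Dpep1, the dipeptidase of the next step, was lower, with 1.001 and 3.20 RPKM (-1.28, or -0.95 with matched upper quartiles). Lta4h, which draws leukotriene A4 towards leukotriene B4, had 19.3 and 7.78 RPKM (0.96, or 1.21 without scaling). The ratio of Ltc4s to Lta4h was 1.47 in mTEChi (from 1.40 to 1.55) and 4.14 in mTEClo (from 3.58 to 4.795). The leukotriene B4 receptors were low, with 0.388 and 1.44 RPKM for Ltb4r1 and 0.339 and 0.665 RPKM for Ltb4r2.

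Of the other lipoxygenases, 2 of 6 were at least 2-fold higher (16.1% of all genes), a count that depends on the scaling. It was 5 without scaling and 6 with matched upper quartiles. The count of all genes also rose, from 2508 to 3024 and 3430. Past 2-fold in the main scaling were Alox12b (11.0 and 1.16 RPKM, 2.32), an enzyme of the skin barrier, and Alox8 (8.80 and 1.01 RPKM, 2.14). Alox12e had the highest level of the 6, with 308 and 137 RPKM (0.88).

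Of 8 further histamine genes that passed the filter, 4 were at least 2-fold higher (16.1% of all genes) and 0 were lower. Aoc1, the diamine oxidase that degrades histamine outside cells, had 163 RPKM in mTEChi and 14.7 RPKM in mTEClo (3.13). The ratio of Hdc to Aoc1 was thus 1.10 in mTEChi (from 1.09 to 1.12) and 2.42 in mTEClo (from 2.23 to 2.63). Hal, which removes histidine by another route, had 38.5 and 6.20 RPKM (2.22). The transporters Slc18a2, which loads histamine into vesicles, and Slc22a3 had 2.01 and 0.0378 RPKM (1.52) and 3.72 and 0.424 RPKM (1.64). With a pseudocount of 5 RPKM these came to 0.47 and 0.66, so 2 of the 4, Aoc1 and Hal, remained past 2-fold. Hnmt, which methylates histamine, had 1.80 and 2.66 RPKM (-0.59). No histamine receptor passed the filter: Hrh1, Hrh2 and Hrh4 were listed at 0.495, 0.0937 and 0.346 RPKM in mTEChi and at 0 in mTEClo, and Hrh3 at 0.376 and 0.138 RPKM.

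**Figure D4:**
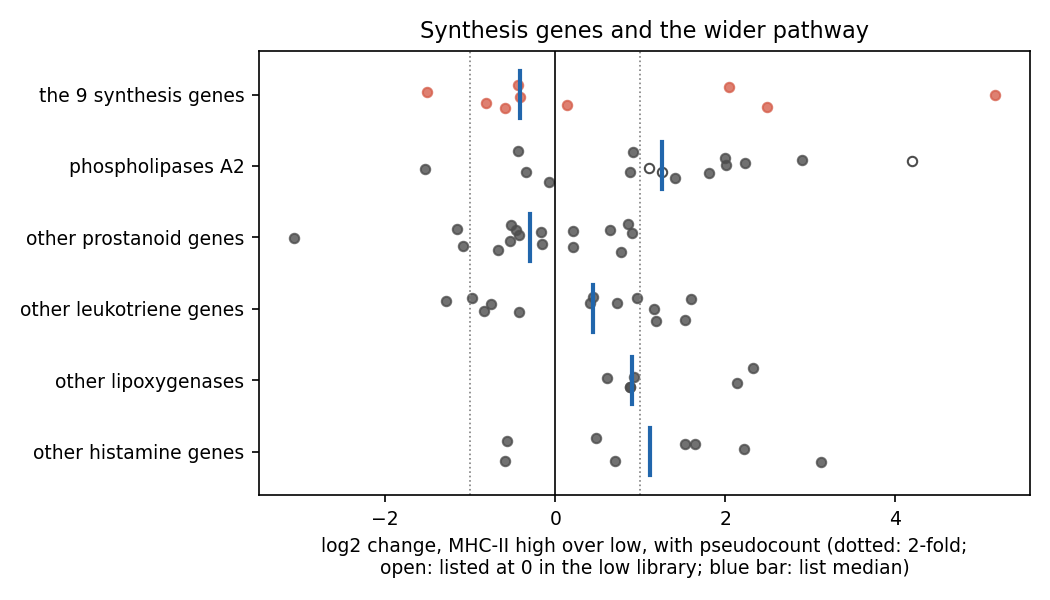
Log2 change of the 9 synthesis genes (red) and of the further pathway genes (grey) that passed the filter, by list, with list medians as blue bars and open points for genes listed at 0 in mTEClo. Phospholipases and histamine genes spread mostly to the right of 0, with medians of 1.26 (1.81 with zeros set to a bound of 3 reads) and 1.11, while other prostanoid genes centre on -0.30.

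Markers of the cell types known for these enzymes were read beside them. In bulk RNA, fewer cells of a type and less RNA per cell cannot be told apart. Of 14 tuft cell markers 13 were matched, of which none was 2-fold higher in mTEChi (16.1% of all genes). At least 2-fold lower (9.35% of all genes) were 3: Gng13 (82.0 and 237 RPKM), Il25 (29.8 and 60.5 RPKM) and Chat (2.74 and 5.50 RPKM). Higher by less than 2-fold were Pou2f3 (24.4 and 15.9 RPKM, 0.33), Sucnr1 (0.38), Il17rb (0.21) and Gfi1b (0.07), and the rest were lower. The 13 ran from -1.79 to 0.38 with a median of -0.46 and summed to 365 RPKM in mTEChi and 584 RPKM in mTEClo, and none was at 0. Alox5, Alox5ap, Ltc4s, Ptgs1 and Hpgds ran from -1.51 to -0.41 and summed to 125 and 177 RPKM. With matched upper quartiles the tuft median was -0.05, and 1 marker (Gng13) was past 2-fold. These 5 were grouped with earlier results known and are the same 5 members that were lower in mTEChi. Their common direction is therefore a description and no support for a shared source. The members outside the group ran from 0.14 (Ptges) to 5.17 (Ptgds), with Ptgs2 at 2.49. The part of tuft cells in these values was not tested.

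Mast cell markers other than Kit were listed at 0 in mTEClo, where Hdc had 35.5 RPKM. Of 8 mast cell markers, 7 were listed at 0 there (Cpa3, Cma1, Mcpt4, Tpsb2, Tpsab1, Ms4a2 and Fcer1a), and only Kit, which other cells also express, had a value (8.12 RPKM). In mTEChi all 8 were above 0 and summed to 39.8 RPKM, with Kit at 12.7 RPKM and Tpsb2 at 7.76 RPKM the highest, against 180 RPKM for Hdc. The mast cell proteases Cma1 and Mcpt4 had 5.20 and 6.81 RPKM there, and Cpa3 had 0.258 RPKM. Of 4 basophil markers, Mcpt8 and Prss34 were listed at 0 in mTEClo, and the list summed to 20.1 RPKM in mTEChi and 5.57 RPKM in mTEClo. A value of 0 can also be a failed estimate, since the ribosomal protein gene Rps21 had 144 RPKM in mTEChi and 0 in mTEClo. The part of mast cells and basophils in the Hdc values was not tested.

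Most myeloid markers that passed the filter were higher in mTEChi, while Itgax had a change of -0.01. Among the synthesis genes, Ptgs2 and Hdc were higher there, and Alox5, Alox5ap, Ltc4s, Hpgds and Ptgs1 were lower. Of 7 macrophage and dendritic cell markers that passed the filter and were above 0 in mTEClo, 6 were at least 2-fold higher, beside 11.4% of all such genes. With a pseudocount of 5 RPKM, 4 of the whole list were at least 2-fold higher, as were 877 of all 15590 genes. The list summed to 549 RPKM in mTEChi and 142 RPKM in mTEClo, with Lyz2 the highest in both (493 and 133 RPKM) and Flt3, Xcr1 and Cd209a at 0 in mTEClo. Of 4 neutrophil markers that passed the filter, Mpo and Ngp were at 0 in mTEClo and are past 2-fold by construction. S100a8 and S100a9, both above 0 in mTEClo, were at least 2-fold higher (11.4% of all such genes). The 7 on the list summed to 408 and 39.9 RPKM. S100a8 (237 and 15.4 RPKM) and S100a9 (146 and 24.5 RPKM), which keratinocytes also make, led that list, and Csf3r and Elane were at 0 in mTEClo as well. Platelet markers, of interest because platelets are known for Ptgs1, summed to 22.9 and 4.62 RPKM, where Ptgs1 had 10.2 and 25.5 RPKM, and Gp9 was at 0 in mTEClo. The part of these cells in the values of the synthesis genes was not tested.

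**Figure D5:**
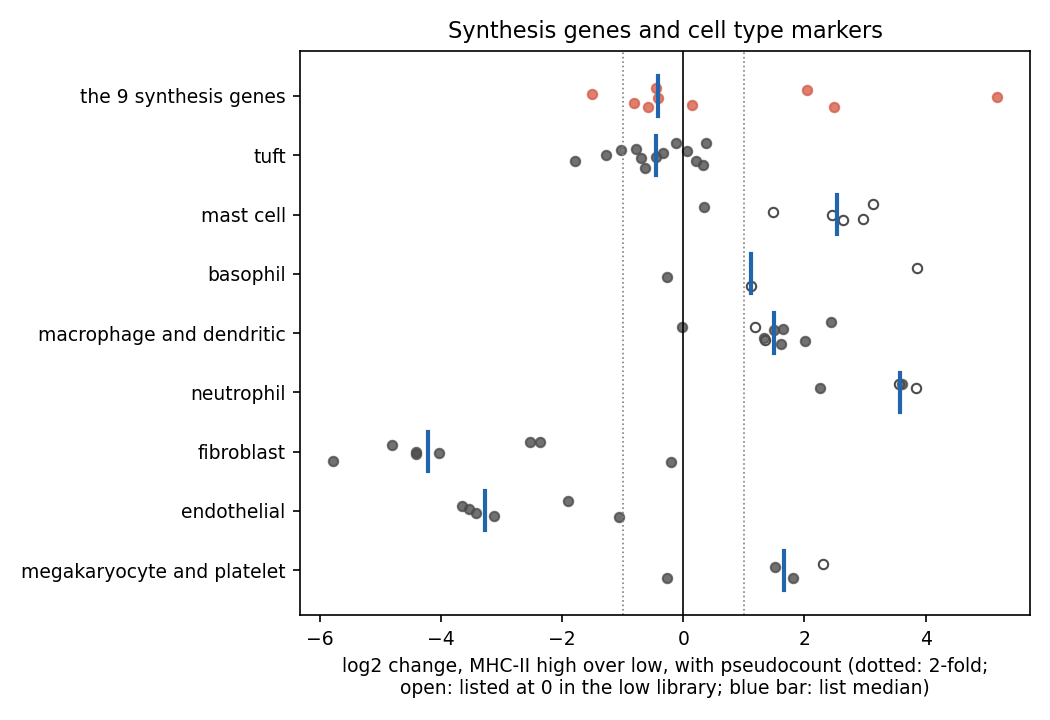
Log2 change of the 9 synthesis genes (red) and of cell type markers (grey) that passed the filter, with list medians as blue bars, open points for genes listed at 0 in mTEClo and dotted lines at 2-fold. Tuft cell markers centre on -0.46 (-0.05 with matched upper quartiles). Of the 5 lower synthesis genes, Ptgs1 lies at -1.51 and the others from -0.81 to -0.41. Fibroblast and endothelial markers lie far on the low side, with medians of -4.22 and -3.27.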

How the data were processed

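Poly(A)-selected RNA of 1 MHC-II high and 1 MHC-II low library was measured. The deposited RPKM values were computed by the authors. Per the submitters' processing notes, CASAVA, Bowtie 1.0.0, bedtools and build mm9 were used, with no role stated; the treatment of reads that fit several isoforms or paralogs is not stated in these sources. TruSeq libraries without strand were made, per the labels' protocols.

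RefSeq's gene table (GRCm38.p6) named 30212 of 30794 transcript lines and GENCODE M21 184 more, while 398 stayed unnamed and were left out. A gene's value is its line with the highest mean. The 9 genes and all lists were chosen with earlier results of these data known. Named genes are the 9, every pathway gene past 2-fold, receptors and enzymes that act on their products, and the leading or zero markers. Tuft cell markers past 2-fold or higher in mTEChi are named too. With 1 ratio per gene, none was named for likeness of pattern. Depth was recovered from steps of RPKM times GENCODE length: of transcripts with 1 to 10 reads, 76.2% of 1378 (high) and 66.2% of 952 (low) lay within 0.1 of a whole read. Lines at 0 made up 9.14% and 28.0%. Scaling, calling and depth steps were tested on simulated data with counting error only and with known transcript lengths. Wrong lengths and the differing sequencing modes were thus not covered. Alternatives were 2 other pseudocounts, 3 scalings, 2 filters and 3 choices of transcript line. Scripts ran on scipy 1.17.1, pandas 2.3.3, numpy 2.4.6 and Python 3.11.15, and figures were drawn with matplotlib 3.10.9.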

Additional observations from a re-analysis of the deposited data

How the results depend on the processing

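The counts of the 9 synthesis genes past 2-fold, 3 higher and 1 lower, were the same in number under all 10 alternatives, and none of the 9 log2 changes took the other sign in them. The 2 filters could not change these values, since each of the 9 averaged above 5 RPKM. The 3 choices of transcript line moved only the scaling factor, since each gene has 1 line. Only the 2 pseudocounts and 3 scalings could thus move them by much. Ptgs2 ran from 2.31 to 2.90, Hdc from 1.95 to 2.46, Ptgds from 3.63 to 6.06 and Ptgs1 from -1.59 to -1.09. Counts of the 69 pathway genes moved more: from 19 higher and 5 lower to 9 and 2 with a pseudocount of 5 RPKM, 10 and 2 with a mean of 5 RPKM or more, and 30 and 2 with matched upper quartiles. The lower count was 3 without scaling and 8 with a pseudocount of 0.1 RPKM. Over all genes, 2508 higher and 1457 lower became 877 and 648 with a pseudocount of 5 RPKM, 1010 and 822 with a mean of 5 RPKM or more, and 3430 and 838 with matched upper quartiles. No paired analysis was possible because each group has 1 library, and for the same reason no library could be left out. Depth limits values near 0 in the low library, which held 5.50 times fewer reads.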
